A study of Mus musculus with 3 samples.

Results

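The genes described here are 38 genes of the NRF2 antioxidant response and of glutathione metabolism, taken by name from the deposited expression table of ST2 cells, which are mouse stromal cells of the bone marrow kept as a line. They are 38 of 51826 rows in the table, and all 38 had a row. Messenger RNA was sequenced from 3 libraries, 1 per group. For the control library, cells received an empty vector together with a control siRNA. For NELL2 overexpression they received the NELL2 construct with the same kind of control siRNA, and for Fn1 knockdown they received the empty vector with an siRNA against Fn1. NELL2 is a secreted glycoprotein, Fn1 encodes fibronectin, and the study compared these libraries to look for genes downstream of the 2 proteins. All cells were transfected by lipofection with siRNA at 30 nM, so the control cells also carried a vector and an siRNA. Because each group was 1 library of 1 line, each value below is a difference between libraries with no replicate check, and no test was made.

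NRF2, encoded by Nfe2l2, is a transcription factor that is held at a low level by KEAP1, an adaptor that presents it to a ubiquitin ligase. Oxidants and electrophiles modify KEAP1, NRF2 then accumulates, pairs with a small MAF protein and binds antioxidant response elements near genes for glutathione synthesis, the thioredoxin system, NADPH supply, heme breakdown and detoxification. Control of NRF2 is mostly at the level of the protein, so the amount of Nfe2l2 messenger RNA is not a measure of its activity.

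The targeted genes matched the labels. Nell2 was at 0.640, 326 and 1.06 FPKM in the libraries of control, NELL2 overexpression and Fn1 knockdown, where FPKM is the number of fragments scaled to transcript length and to the total mapped, and Fn1 was at 2802, 2489 and 137 FPKM. All 12 stromal markers examined reached 1 FPKM and summed to between 2622 and 3053 FPKM, most of it from Col1a1 and Col1a2, while markers of blood, endothelial, epithelial, adipocyte and osteoblast cells summed to between 0.291 and 4.62 FPKM per list in any library. Of the stromal markers, Nt5e (2.17, 2.47 and 10.1 FPKM) and Lepr (7.71, 8.07 and 13.3 FPKM) were past 1.5-fold higher with Fn1 knockdown, and their part in the results below was not tested. The blood sum was 4.62, 4.57 and 1.93 FPKM, most of it from the macrophage gene Cd68 (4.08, 3.54 and 1.57 FPKM), with Cd3e listed at 0, and its part in the results below was not tested. Depth, estimated from the smallest values, was 23000000, 23700000 and 24200000 fragments.

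The antioxidant genes were highly expressed in all 3 libraries. Their median level was 42.4 FPKM in the control, 44.9 FPKM in the NELL2 overexpression and 71.8 FPKM in the Fn1 knockdown library, beside medians of 9.99, 9.99 and 9.98 FPKM for all genes that reached 1 FPKM in each library. Together they made up 1.49%, 1.61% and 1.72% of all FPKM. The ferritin genes Ftl1 and Fth1 alone were more than the other 36 members combined in the control and NELL2 overexpression libraries, and without them the shares were 0.728%, 0.761% and 0.945%. Levels in the control ran from 2.27 FPKM for Slc7a11 to 1728 FPKM for Fth1.

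Most members of this group were higher than control in the Fn1 knockdown library, and most were close to control in the NELL2 overexpression library. The rule for calling a gene was a difference of at least 1 in log2(FPKM + 1), that is 2-fold on this scale, with 1 FPKM reached in either library compared; all 38 members reached that level in each comparison. With Fn1 knockdown, 4 of 38 members (10.5%) were called higher than control, namely Taldo1, Srxn1, Gsta4 and Slc7a11, while 0.684% of 12574 genes were called higher, and none of the members was called lower, with 0.549% of genes called lower. With 5 in place of 1 added to FPKM before the logarithm, Slc7a11 (0.63) and Gsta4 (0.91) were no longer called and the count was 2. The members were chosen with earlier results of these data known, and Srxn1 and Taldo1 had already been noticed. The shares of members called are thus not independent support. At a lower cutoff of 1.5-fold, 11 members (28.9%) were higher, with 2.92% of genes past it, and none was lower, with 3.32% of genes. The members beyond the 4 named were Nqo1, Gpx1, Blvrb, Gclc, Esd, Pgd and Cat. By any amount, 31 of 38 (81.6%) were higher against 49.5% of all genes, and the median log2 difference was 0.28 against -0.0028. Since the members were well expressed, a floor of 10 FPKM was also tried, which the control or the Fn1 knockdown library could meet alone. With it, 10 of 36 members (27.8%) were past 1.5-fold higher beside 194 of 6421 genes (3.02%). Gsta4 (9.17 FPKM in the control and 21.7 with Fn1 knockdown) and Gclm (8.67 and 12.8 FPKM) met this floor only with Fn1 knockdown. Gsta4 is among the 10, so its entry in that count is linked to being high there.

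**Figure D1:**
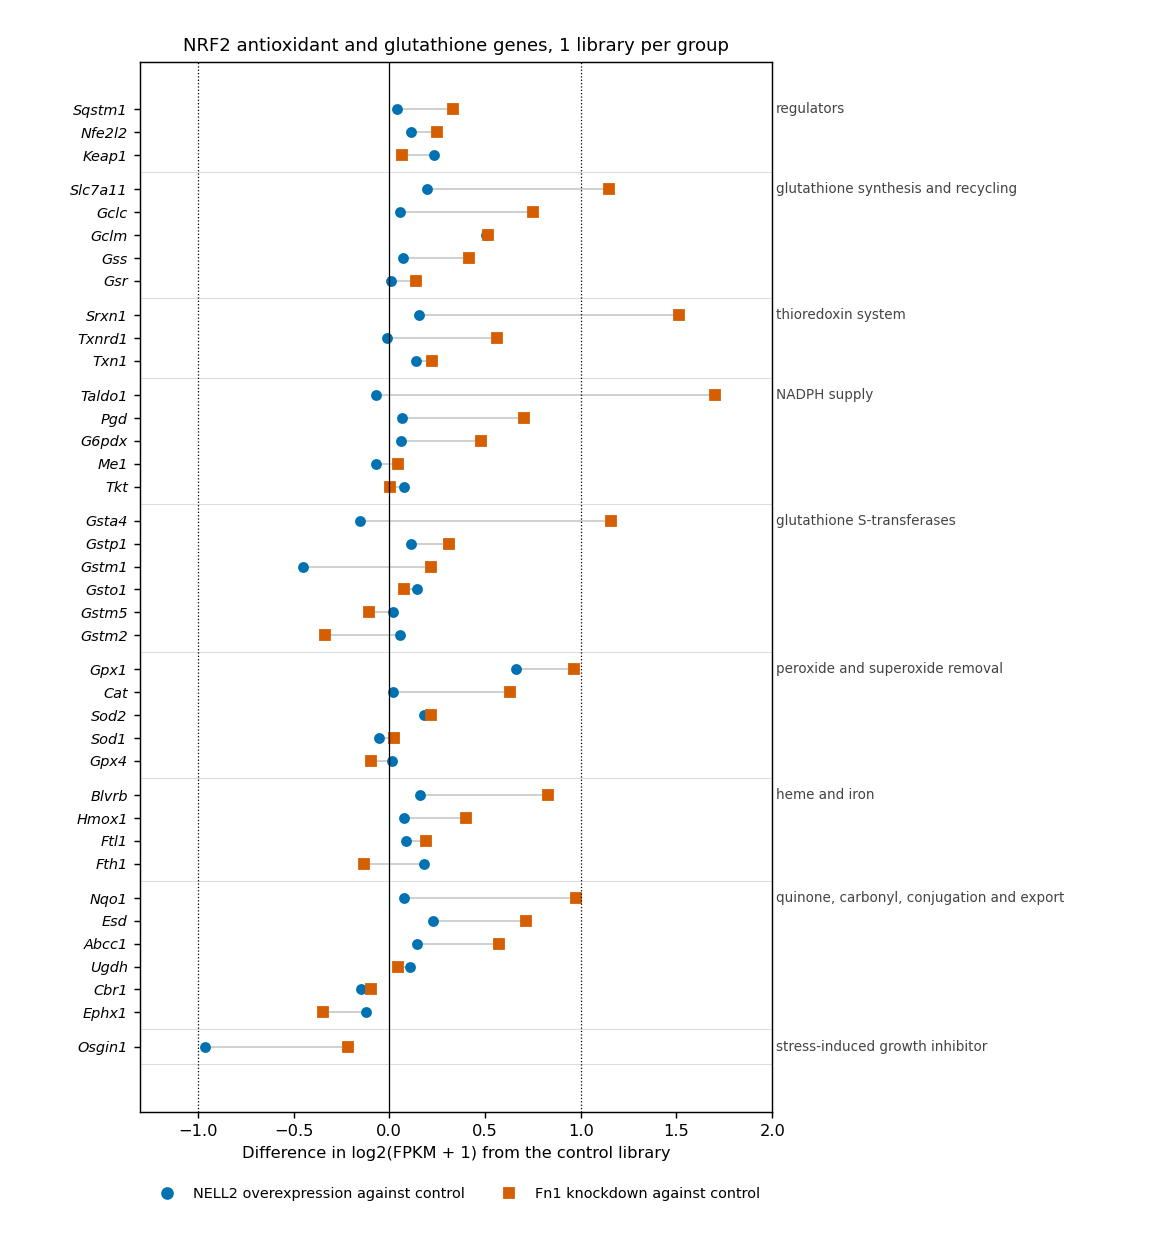
Difference in log2(FPKM + 1) from the control library for each of the 38 members, grouped by role, with circles for NELL2 overexpression, squares for Fn1 knockdown, a line joining both and dotted lines at 2-fold. Squares lie to the right of 0 for 31 members and past 2-fold for Taldo1, Srxn1, Gsta4 and Slc7a11. No circle is past 2-fold, and those farthest from 0 are Osgin1 at -0.96 and Gpx1 at 0.66.

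With NELL2 overexpression, no member was called in either direction, beside 0.374% of 12572 genes called higher and 0.278% called lower, but with 0.1 added to FPKM in place of 1, Osgin1 was called lower (-1.22). At 1.5-fold, 1 member was higher (Gpx1, with 1.54% of genes past the cutoff) and 1 was lower (Osgin1, with 1.05% of genes). Of the 38, 29 (76.3%) were higher than control by any amount, beside 52.3% of all genes, but the median difference was 0.074 on the log2 scale, beside 0.0072 for all genes. The spread of the members in this comparison (SD 0.24) was close to that of all genes (SD 0.25), whereas with Fn1 knockdown it was 0.49 for the members and 0.34 for all genes. Both comparisons use the same control library, so agreement between them is partly built in.

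The Fn1 knockdown and NELL2 overexpression libraries were therefore also compared directly, which leaves the control out. This comparison uses the same Fn1 knockdown library as the one against control, so agreement between them is also partly built in. Taldo1, Srxn1 and Gsta4 were called higher with Fn1 knockdown (3 of 38, with 0.627% of 12596 genes called higher), and none was called lower, with 0.659% of genes. At 1.5-fold, 11 members were higher, with 2.84% of genes, and none lower, with 3.56%. These were the 3 named together with Slc7a11, Nqo1, Osgin1, Gclc, Blvrb, Gstm1, Pgd and Cat. The median difference was 0.25 against -0.0096 for all genes, and 29 of 38 were higher by any amount against 48.1%.

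**Figure D2:**
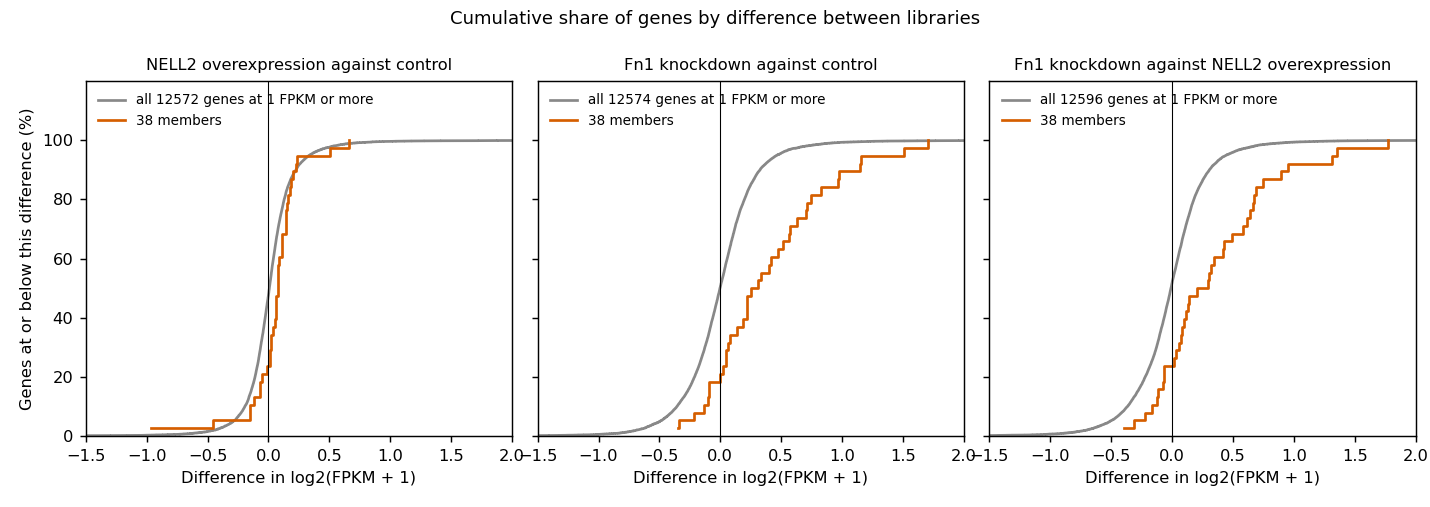
Cumulative percentage of genes (vertical axis) at or below each difference in log2(FPKM + 1) (horizontal axis) for all genes at 1 FPKM or more (grey) and the 38 members (orange) in the 3 comparisons between single libraries. The member curve is shifted to the right of the gene curve in both comparisons with Fn1 knockdown, with medians of 0.28 and 0.25, and lies close to it for NELL2 overexpression against control, with a median of 0.074.

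The 3 regulators were all higher than control with Fn1 knockdown, with a median log2 difference of 0.25, near the 0.28 of the whole group. None reached 1.5-fold, beside 2.92% of all genes past it higher and 3.32% lower. Nfe2l2 (GRCm38 chromosome 2, 75675513 to 75704641, minus strand) was at 65.0, 70.4 and 77.6 FPKM in the libraries of control, NELL2 overexpression and Fn1 knockdown, the order used for all values that follow. Its log2 difference from control was 0.11 with NELL2 overexpression and 0.25 with Fn1 knockdown. Keap1, its inhibitor, was at 11.7, 13.9 and 12.3 FPKM. Sqstm1, which encodes the autophagy receptor p62 that binds KEAP1, was at 209, 215 and 264 FPKM, a difference of 0.33 with Fn1 knockdown. None of the 3 passed 1.5-fold in the other comparisons either. With NELL2 overexpression 1.54% of all genes were past it higher and 1.05% lower, and in the direct comparison 2.84% and 3.56%.

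In glutathione synthesis and recycling, all 5 members were higher than control with Fn1 knockdown, with a median of 0.52 on the log2 scale. Slc7a11 (chromosome 3, 49892526 to 50443614, minus strand) encodes the xCT subunit of the cystine importer that supplies cysteine, and was at 2.27, 2.75 and 6.24 FPKM. The Fn1 knockdown library stood above the other two, with log2 differences of 1.15 from control and 0.95 from NELL2 overexpression. From about 303 and 878 estimated fragments, the ratio of Fn1 knockdown to control was 2.75 with an exact 95% interval of 2.41 to 3.15, which covers counting error only. Gclc, the catalytic subunit of glutamate-cysteine ligase and the rate-limiting enzyme of glutathione synthesis, was at 20.4, 21.2 and 34.9 FPKM (0.75 with Fn1 knockdown). The modifier subunit of the same enzyme, Gclm, behaved differently: it was at 8.67, 12.7 and 12.8 FPKM, so both other libraries were above control by a like amount (0.51 and 0.52) and below the 1.5-fold cutoff. Gclm shares sequence with Ppia, which was at 627, 607 and 592 FPKM. The ratio of Gclc to Gclm in FPKM was 2.35, 1.67 and 2.72. Glutathione synthetase, Gss, was at 33.5, 35.4 and 45.1 FPKM (0.42 with Fn1 knockdown). Gsr, the reductase that regenerates glutathione from its oxidized form, was at 11.7, 11.7 and 12.9 FPKM, and hardly differed between libraries.

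**Figure D3:**
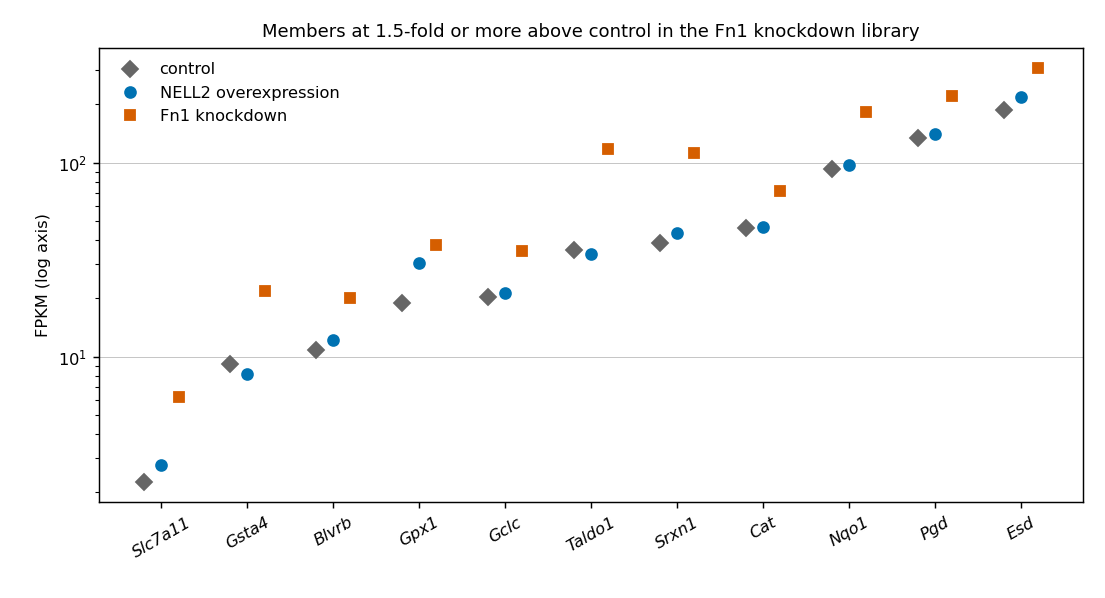
FPKM on a log axis in the control (diamonds), NELL2 overexpression (circles) and Fn1 knockdown (squares) libraries, 1 library each, for the 11 members at 1.5-fold or more above control with Fn1 knockdown, in order of their control level. The squares are the highest point for each gene, and circles lie close to diamonds except for Gpx1, at 18.8 and 30.4 FPKM.

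In the thioredoxin system, the 3 members were again highest with Fn1 knockdown. Srxn1 (chromosome 2, 152105516 to 152111376, plus strand) encodes sulfiredoxin, which repairs over-oxidized peroxiredoxins, and was at 38.7, 43.2 and 112 FPKM. Its log2 difference of 1.51 with Fn1 knockdown stood at the 99.8 percentile of all genes in that comparison, whereas with NELL2 overexpression it was 0.16. Txnrd1, the cytosolic thioredoxin reductase, was at 73.3, 72.6 and 109 FPKM, a difference of 0.56 that lay just below the 1.5-fold cutoff. Thioredoxin itself, Txn1, was at 156, 172 and 182 FPKM (0.22 with Fn1 knockdown). The ratio of Srxn1 to Txn1 was thus 0.248, 0.251 and 0.615, so the repair enzyme differed more than the carrier.

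Among the enzymes of NADPH supply and the pentose phosphate pathway, all 5 were higher than control with Fn1 knockdown, with a median of 0.48, and they ranged from the largest difference of the 38 members to almost none. Taldo1 (chromosome 7, 141392199 to 141402968, plus strand) encodes transaldolase of the non-oxidative pentose phosphate pathway and was at 35.6, 33.8 and 118 FPKM. It had the largest difference of the 38 members both against control (1.70) and against the NELL2 overexpression library (1.77). Tkt, the transketolase of the same branch, was at 73.3, 77.3 and 73.4 FPKM, with a difference of 0.00 from control, and the ratio of Taldo1 to Tkt was 0.485, 0.438 and 1.61. In the oxidative branch, which makes the NADPH, G6pdx was at 34.1, 35.7 and 47.8 FPKM and Pgd at 134, 140 and 220 FPKM. Their differences with Fn1 knockdown were 0.48 and 0.71, and only Pgd was past 1.5-fold. Me1, the cytosolic malic enzyme, was at 69.5, 66.2 and 71.8 FPKM.

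Transaldolase and Slc7a11 share sequence with genes that had no value of their own, which limits how far their values can be read. In GENCODE M21 transcripts, Taldo1 has 302 words of 31 bases in common with the pseudogene Gm17823, and Slc7a11 has 172 in common with the long noncoding RNA AC157548.1; neither of these 2 names has a row in the table. How the authors divided reads between such copies is not given in the sources used here. Of the 38 members, 17 shared at least 100 such words or an exon stretch on the same strand with another gene and 21 did not. Among the members past 1.5-fold with Fn1 knockdown, Srxn1, Gsta4, Nqo1, Gpx1, Blvrb, Gclc, Pgd and Cat shared none. Leaving out the 17, which was decided after the data were seen, 2 of the remaining 21 members were past 2-fold and 8 past 1.5-fold, all higher, beside 0.684% and 2.92% of all genes.

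The windows before the start sites of the called members are shown because these members had the largest differences with Fn1 knockdown. The sequences are from RefSeq on GRCm38.p6, 250 bases upstream of the annotated start and written 5′ to 3′ on the strand of the gene. RefSeq windows were held for 33 of 38 members, and those of Hmox1, Gclc, Gsr, Gsta4 and Abcc1 were not analysed here. Windows were searched on both strands for TGACNNNGC (the core of the antioxidant response element), TGANTCA (the site of AP-1, with which the element shares letters) and TGATGNAA (the composite element of C/EBP and ATF proteins), and capitals mark each match. Srxn1 held 2 AP-1 matches, at -102 and -45 from the start. The match at -45 is followed by gc, so these letters differ from the searched antioxidant response element core only in G for C. Variants of that core were not searched. Slc7a11 held 2 C/EBP-ATF matches on opposite strands, at -66 and -47. Taldo1 held none of the 3 motifs.
Srxn1 (chr2:152105274-152105523, plus strand): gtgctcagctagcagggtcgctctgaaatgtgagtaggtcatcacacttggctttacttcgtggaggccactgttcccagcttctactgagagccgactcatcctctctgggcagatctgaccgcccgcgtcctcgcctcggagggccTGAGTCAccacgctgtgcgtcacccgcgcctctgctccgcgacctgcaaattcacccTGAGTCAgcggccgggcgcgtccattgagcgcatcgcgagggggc
Slc7a11 (chr3:50443614-50443863, minus strand): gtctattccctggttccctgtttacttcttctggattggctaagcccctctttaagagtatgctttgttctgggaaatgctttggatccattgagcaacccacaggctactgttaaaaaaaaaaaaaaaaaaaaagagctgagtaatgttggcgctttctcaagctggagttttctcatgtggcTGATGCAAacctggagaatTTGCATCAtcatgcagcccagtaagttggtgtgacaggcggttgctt
Taldo1 (chr7:141391910-141392159, plus strand): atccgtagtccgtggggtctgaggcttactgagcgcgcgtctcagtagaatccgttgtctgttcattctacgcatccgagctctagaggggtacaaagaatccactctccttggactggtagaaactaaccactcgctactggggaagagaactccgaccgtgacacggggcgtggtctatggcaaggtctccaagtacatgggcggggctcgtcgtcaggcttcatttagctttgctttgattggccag

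Within this window the antioxidant response element core was found before 7 of 33 members (21.2%), beside 11.5% of 27025 genes in the same table. A gene was counted if any of its windows held a match. By window, 7 of 43 member windows (16.3%) held it, beside 10.2% of 32851. Some starts lie inside the gene, as that behind the Txnrd1 match does (gene span 82833951 to 82897712). The 7 were Nfe2l2, Gclm, Txnrd1, G6pdx, Gstm5, Sod1 and Ugdh. None of these 7 was past 1.5-fold with Fn1 knockdown, but with 2.92% of all genes past it higher and 3.32% lower, no more is read from that count, and Gclc and Gsta4, which were past it, had no window here. The AP-1 letters were before Srxn1, Gstm5, Gstp1 and Osgin1 (12.1%, beside 7.82% of genes) and the C/EBP-ATF letters before Slc7a11 alone (3.03%, beside 3.91%), and no match of different motifs overlapped. A match is a description of the letters and not a bound site. Elements further from the start, and variants of the core such as the letters of Srxn1 above, were not searched. The matches to the antioxidant response element core are given with 10 bases on each side, the match in capitals, since they show which of the variable letters each gene carries; Ugdh has a pair.
Nfe2l2 (chr2:75704885-75704913, minus strand): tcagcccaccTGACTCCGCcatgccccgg
Gclm (chr3:122245413-122245441, plus strand): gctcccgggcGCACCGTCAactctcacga
Txnrd1 (chr10:82859104-82859132, plus strand): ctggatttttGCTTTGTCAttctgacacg
G6pdx (chrX:74428919-74428947, minus strand): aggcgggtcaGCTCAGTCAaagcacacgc
Gstm5 (chr3:107895802-107895830, plus strand): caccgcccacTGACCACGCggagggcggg
Sod1 (chr16:90220696-90220724, plus strand): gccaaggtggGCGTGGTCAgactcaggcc
Ugdh (chr5:65435956-65435984, minus strand): gcggagcccgTGACTTAGCtggagctgat
Ugdh (chr5:65435918-65435946, minus strand): tcctcaagggGCGTGGTCAtacagttcgg

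Glutathione S-transferases, which join glutathione to electrophiles, did not move as a group: 4 of 6 were higher and 2 lower than control with Fn1 knockdown, and the median was 0.15. Gsta4 (chromosome 9, 78182774 to 78209349, plus strand), whose product conjugates the lipid peroxidation product 4-hydroxynonenal, was the only called member, at 9.17, 8.15 and 21.7 FPKM. Its difference was 1.16 from control and 1.31 from NELL2 overexpression, and its ratio of Fn1 knockdown to control was 2.37 (exact 95% interval 1.99 to 2.83, from about 181 and 451 estimated fragments). The neighboring mu-class genes on chromosome 3 went different ways. Gstm1 was at 19.5, 14.0 and 22.8 FPKM, lowest with NELL2 overexpression (-0.45), and the FPKM ratio of Fn1 knockdown to NELL2 overexpression was 1.63. Gstm2 was at 36.4, 37.9 and 28.6 FPKM, lowest with Fn1 knockdown (-0.34), and Gstm5 at 24.3, 24.6 and 22.5 FPKM. The summed level of Gstm1, Gstm2, Gstm4, Gstm5, Gstm6 and Gstm7 was 85.5, 82.3 and 78.1 FPKM, so the family total differed less than Gstm1 and Gstm2 did. The pi-class Gstp1 was at 153, 166 and 191 FPKM and Gsto1 at 180, 198 and 190 FPKM. Gstp1 is uncertain because it shares sequence with Gstp2 (7.33, 9.75 and 11.1 FPKM) and the pseudogene Gstp-ps (32.6, 39.7 and 47.8 FPKM), and Gstm1 shares sequence with Gstm2-ps1.

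Among the enzymes that remove peroxide and superoxide, Gpx1 and Cat were past 1.5-fold with Fn1 knockdown and the others were not. Gpx1, the cytosolic glutathione peroxidase, was at 18.8, 30.4 and 37.8 FPKM, and was the only member of the 38 past 1.5-fold higher with NELL2 overexpression (0.66). Its difference with Fn1 knockdown was 0.97, just outside the 2-fold rule, as was that of Nqo1 at 0.97, while Slc7a11 at 1.15 and Gsta4 at 1.16 were just inside. Catalase, Cat, was at 46.0, 46.7 and 71.8 FPKM (0.63 with Fn1 knockdown). In contrast Gpx4, which reduces lipid hydroperoxides, was at 220, 223 and 206 FPKM. The superoxide dismutases were also nearly level, with Sod1 at 184, 177 and 187 FPKM and the mitochondrial Sod2 at 11.4, 13.1 and 13.5 FPKM.

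In heme breakdown and iron storage, Blvrb differed most. Blvrb, a biliverdin and flavin reductase, was at 10.9, 12.2 and 20.1 FPKM, a difference of 0.83 with Fn1 knockdown. Hmox1, the heme oxygenase that opens the heme ring, was already at 450 FPKM in the control, the 99.1 percentile of genes at 1 FPKM or more, and at 475 and 593 FPKM in the other libraries (0.08 and 0.40). The ferritin chains went apart: the light chain Ftl1 was at 1324, 1409 and 1510 FPKM, and the heavy chain Fth1, which oxidizes iron for storage, at 1728, 1959 and 1577 FPKM. Fth1 was thus the lowest with Fn1 knockdown (-0.13) and Ftl1 the highest (0.19), and the ratio of light to heavy chain was 0.766, 0.719 and 0.957. Ftl1 shares sequence with several pseudogenes, of which Ftl1-ps1 was at 15.1, 13.5 and 38.4 FPKM; with Ftl1-ps1, Ftl1-ps2 and Ftl2-ps added, Ftl1 came to 1364, 1447 and 1579 FPKM.

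Of the quinone, carbonyl, conjugation and export genes, 4 of 6 were higher than control with Fn1 knockdown, with a median of 0.31. Nqo1 (chromosome 8, 107388225 to 107403206, minus strand), the quinone reductase widely used as a readout of NRF2, was at 92.7, 97.8 and 183 FPKM, a ratio of 1.97 to control in FPKM with Fn1 knockdown and 1.05 with NELL2 overexpression. Esd, an esterase that releases glutathione from its formaldehyde adduct, was at 186, 218 and 306 FPKM (0.72 with Fn1 knockdown), and shares sequence with several pseudogenes, of which those with a row were below 1 FPKM. Abcc1, the exporter MRP1 of glutathione conjugates, was at 19.8, 22.0 and 29.9 FPKM (0.57), just below the 1.5-fold cutoff. Ugdh, which makes the donor for glucuronidation, was at 52.3, 56.5 and 53.9 FPKM, and the carbonyl reductase Cbr1 at 22.7, 20.4 and 21.2 FPKM. Ephx1, the microsomal epoxide hydrolase, was at 182, 167 and 143 FPKM and had the lowest value of the 38 against control with Fn1 knockdown (-0.35). An exon of Ephx1 overlaps the pseudogene Gm36961 by 72 bases on the same strand, and the row of that pseudogene was at 0.0959, 5.36 and 4.67 FPKM.

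Osgin1 (chromosome 8, 119434124 to 119446256, plus strand) encodes a growth inhibitor induced by oxidative stress. It was at 5.01, 2.09 and 4.17 FPKM, lowest with NELL2 overexpression. The log2 difference there was -0.96, the lowest of all members in that comparison and at the 0.302 percentile of all genes, and with Fn1 knockdown it was -0.22. The ratio of NELL2 overexpression to control was 0.416 (exact 95% interval 0.307 to 0.557, from about 156 and 67 estimated fragments). For Fn1 knockdown the ratio was 0.834 with an interval of 0.658 to 1.06, so that difference was not detectable at this depth.

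A further 67 genes of the same pathways were examined beside the members, from a list of peroxiredoxins, further transferases, partners of NRF2 and related enzymes. Of 58 at 1 FPKM or more, 4 were called higher with Fn1 knockdown and none lower, beside 0.684% and 0.549% of all genes, and the median difference was 0.12, beside -0.0028 for all genes. That count was 8 (6 higher and 2 lower) with 0.1 added to FPKM in place of 1, and 2 with 5 added. It was 3 with a filter of 5 FPKM. The shares of all genes given here are for the main rule, and shares under these settings are not given. With NELL2 overexpression, 1 of 56 was called higher and none lower, beside 0.374% and 0.278% of all genes, with a median of 0.048, beside 0.0072. Prdx6, a peroxiredoxin that reduces phospholipid hydroperoxides, was at 32.2, 71.5 and 112 FPKM and was called in both comparisons with control (1.13 and 1.77). Prdx1, a cytosolic peroxiredoxin and a substrate of sulfiredoxin, was at 328, 467 and 854 FPKM (0.51 and 1.38). Prdx1 and Prdx6 of this list, and the members Srxn1 and Taldo1, had been noticed in these data before the list was drawn up. Their values are thus not independent support. Aldh3a1, which oxidizes aldehydes, was at 4.53, 4.22 and 10.7 FPKM (1.09 with Fn1 knockdown). The alpha-class transferases Gsta3 (0.631, 0.731 and 2.33 FPKM) and Gsta1 (0.441, 0.337 and 1.85 FPKM) were also higher with Fn1 knockdown, Gsta3 against control (1.03) and Gsta1 against NELL2 overexpression (1.09). Both were near the 1 FPKM floor and reached it only in the Fn1 knockdown library, so their entry in the count is linked to being high there. Reads of such alike family members can also be divided between them.

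The small MAF genes measured (Mafg, Mafk and Maff) and Bach1 were below 1.5-fold in each comparison. At most 2.92% of all genes were past it higher and 3.56% lower in any comparison. Mafg, a small MAF protein with which NRF2 binds DNA, was at 18.1, 17.9 and 21.5 FPKM (0.24 with Fn1 knockdown). Mafk, another, which was named after its values were seen, was at 16.1, 17.8 and 20.7 FPKM (0.35). Bach1, a repressor that competes for the same elements, was at 6.81, 6.74 and 6.06 FPKM. Slc3a2, the heavy chain that pairs with xCT at the membrane, was at 91.6, 87.1 and 104 FPKM, a difference of 0.18 with Fn1 knockdown where that of Slc7a11 was 1.15. Slc7a11 is also a target of ATF4, a transcription factor of the amino acid response. Over 11 genes of that response, Atf4 included, the median differences were -0.023, 0.015 and 0.012 in the 3 comparisons, and none of the 11 was past 1.5-fold, beside 2.92% of all genes higher and 3.32% lower with Fn1 knockdown. In that comparison 8 of the 11 were higher by any amount, beside 49.5% of all genes. The largest differences were those of Asns (55.1, 53.9 and 69.3 FPKM, a difference of 0.33) and Slc7a5 (48.1, 48.1 and 59.6 FPKM, 0.30).

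**Figure D4:**
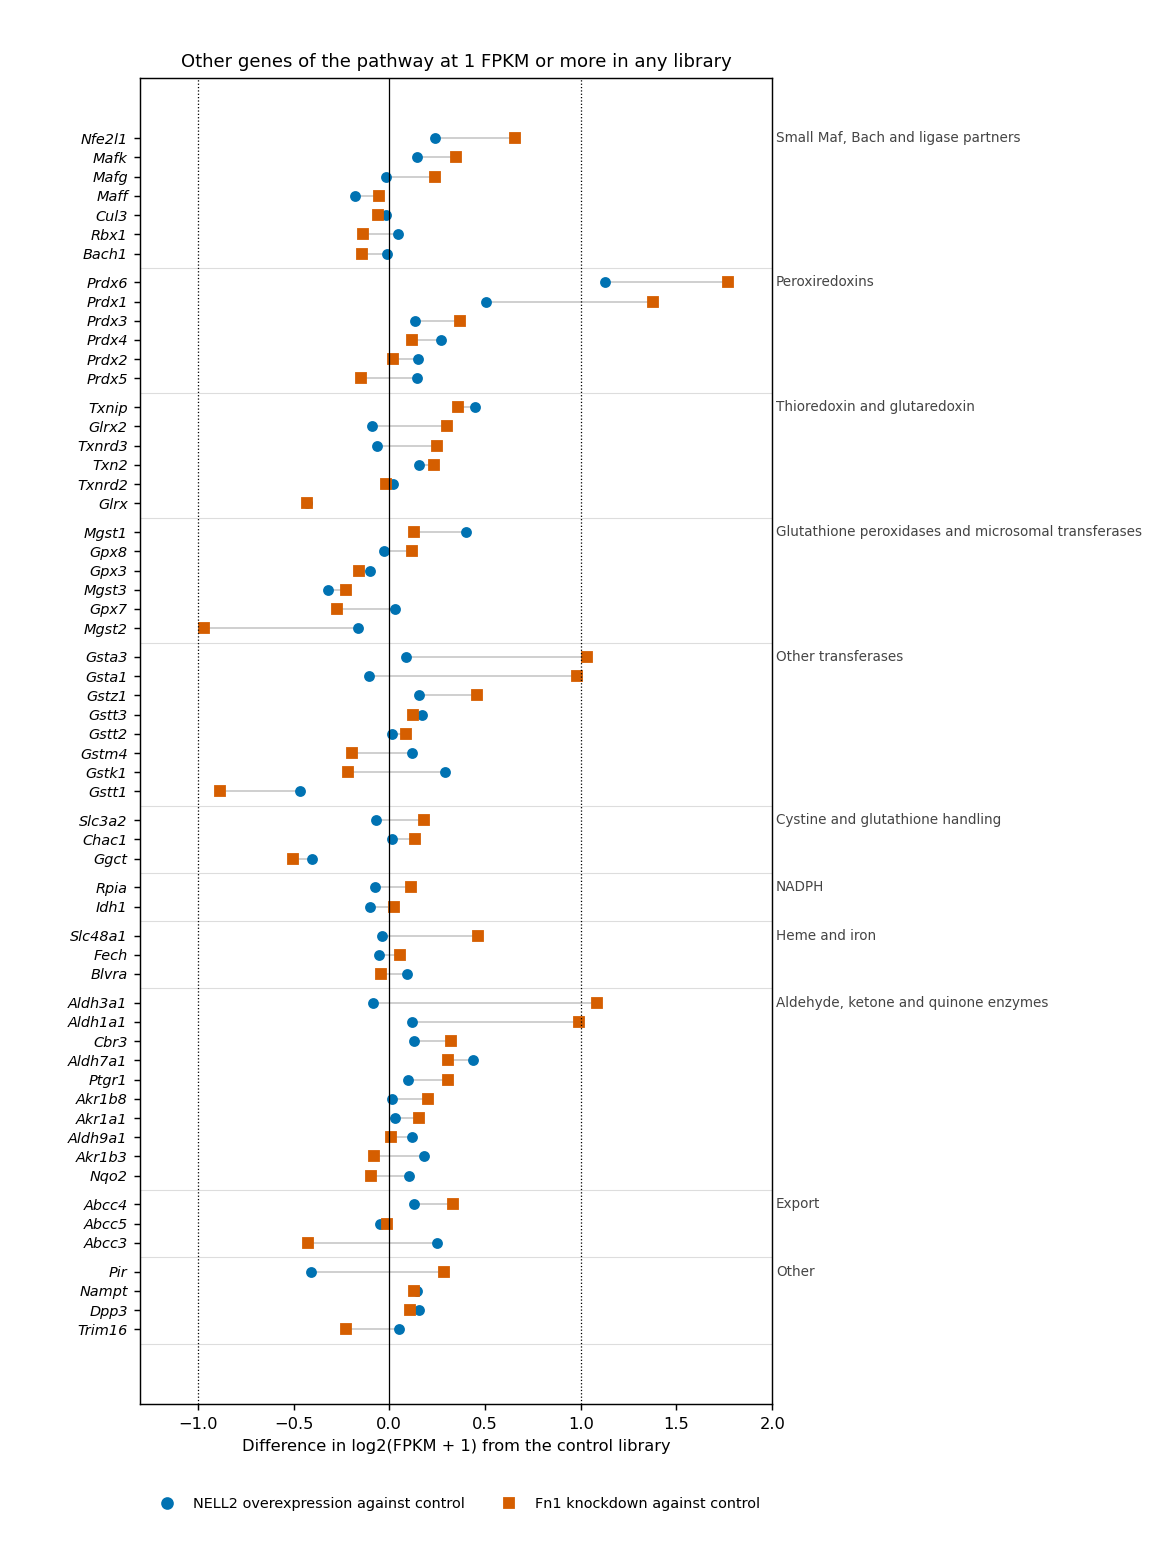
Difference in log2(FPKM + 1) from the control library for the other genes of the pathway that reached 1 FPKM in any library, grouped by role, with circles for NELL2 overexpression, squares for Fn1 knockdown and dotted lines at 2-fold. Squares past 2-fold higher are Prdx6, Prdx1, Aldh3a1 and Gsta3, the only circle past it is Prdx6, and the circle of Glrx is hidden behind its square.

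Across the 38 members, FPKM is a share of each library, so a difference can come from the gene or from the rest of the library. The mitochondrially encoded genes took 7.01%, 6.03% and 5.92% of FPKM, in the order above. With those genes left out of the total the median difference of the members with Fn1 knockdown was 0.27, and with scaling by the median of ratios it was 0.28. In bulk RNA, fewer cells of a type and less RNA per cell cannot be told apart.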

How the data were processed

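Polyadenylated RNA of ST2 cells was sequenced by the authors as 150-base paired reads (MGISEQ-2000) and mapped with HISAT2; the submitters' processing notes also name DESeq and GRCm38. The deposited values are FPKM per gene name. The program that made them, versions, annotation and use of strand are not given in the sources used here. Groups came from the labels, with 1 library each.

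Values were compared as log2(FPKM + 1), with a gene called at a difference of 1 or more and at least 1 FPKM in either library, and at 1.5-fold as an alternative. No test was made. Other pseudocounts (0.1 and 5), filters (none and 5 FPKM) and scalings were tried. Of the rows, 26611 were at 0 in all 3 libraries. Fragments were estimated from the smallest values in transcripts of 600 bases or more; 26.7% to 27.9% of these lay within 0.02 of a whole number, so whole reads were not recovered, and exact 95% intervals for members below 10 FPKM are approximate and cover counting error only.

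Genes were matched by name to GENCODE M21 (GRCm38), whose transcripts gave positions, overlaps and shared 31-base words (minimum 100). Where strand was not used in counting, reads of a gene and its antisense partner cannot be told apart. Promoter windows are from RefSeq (GRCm38.p6). All 38 members are named, and of 67 other pathway genes those past 2-fold in any comparison with Prdx1, Prdx6, Bach1, Mafg and Slc3a2; Mafk, Maff, Asns, Slc7a5, Nt5e, Lepr, the Gstm genes of the family sum and the genes of the closing section were named after their values were seen; members and lists were chosen with earlier results of these data known. Scripts used Python 3.11.15, pandas 2.3.3, numpy 2.4.6, scipy 1.17.1 and matplotlib 3.10.9, and the calls were tested on simulated data.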

Additional observations from a re-analysis of the deposited data

How the results depend on the processing

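Under the alternatives 4 values of single members crossed the 2-fold rule, all with another pseudocount and given below, and no called value changed sign; the filters cannot change a single value. The sign of 2 uncalled values near 0 changed without mitochondrial genes in the total, Gsr with NELL2 overexpression and Tkt with Fn1 knockdown. Under the other pseudocounts, filters and scalings, and with rows of related genes added, the median difference of the members stayed between 0.060 and 0.076 for NELL2 overexpression. It stayed between 0.27 and 0.29 for Fn1 knockdown, and between 0.20 and 0.26 for these 2 libraries compared directly. Over the 36 members at 10 FPKM or more in either library, the last was 0.17. The median was not taken without the members that share sequence. The count of members called moved as follows. For NELL2 overexpression against control, from 0 to 1 with a pseudocount of 0.1 (Osgin1, -1.22) and to 2 at 1.5-fold, also without members that share sequence. For Fn1 knockdown against control, from 4 to 2 with a pseudocount of 5, where Slc7a11 (0.63) and Gsta4 (0.91) were no longer called, to 11 at 1.5-fold, to 2 without members that share sequence and to 8 at 1.5-fold without them. For Fn1 knockdown against NELL2 overexpression, from 3 to 11 at 1.5-fold and 8 at 1.5-fold without the members that share sequence; with a pseudocount of 0.1, Slc7a11 (1.15) was called as well. A larger pseudocount shrinks differences of weakly expressed genes by construction. The share of all genes called is not given for the other pseudocounts and filters, so these counts have no background beside them. Of the other pathway genes, 4 were called with Fn1 knockdown against control, 8 with a pseudocount of 0.1 (6 higher, 2 lower), 2 with a pseudocount of 5 and 9 at 1.5-fold; against NELL2 overexpression 2 were called, and 5, 0 and 9 under the same settings, with 1 at a filter of 5 FPKM. Leaving out members that share sequence was chosen after seeing the data. No paired analysis was possible because there was no second library in any group, and so none could be left out. Depth limits the members with few estimated fragments, among them Osgin1 (about 156 in the control), Gsta4 (181), Gclm (199), Blvrb (216) and Abcc1 (277).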

Other observations

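Among the other genes of the pathway, several not named by the rule above were past 1.5-fold with Fn1 knockdown, and are given here after their values were seen. Nfe2l1, which encodes the related factor NRF1, was at 54.6, 64.7 and 86.8 FPKM in the libraries of control, NELL2 overexpression and Fn1 knockdown, a larger log2 difference with Fn1 knockdown (0.66) than that of Nfe2l2 (0.25). Aldh1a1, an aldehyde dehydrogenase that makes retinoic acid, was at 7.36, 8.08 and 15.6 FPKM, and its close paralog Aldh1a7 at 2.94, 2.74 and 9.18 FPKM. In the opposite direction, the microsomal transferase Mgst2 was at 1.76, 1.46 and 0.413 FPKM and the theta-class transferase Gstt1 at 2.47, 1.51 and 0.877 FPKM, with log2 differences of -0.97 and -0.88 from control. Of the 58 genes of the wider list at 1 FPKM or more, 7 were past 1.5-fold higher and 2 lower with Fn1 knockdown, beside 2.92% and 3.32% of all genes.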
